A study of Macaca mulatta with 12 samples.

Results

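Collagens are assembled from chains that wind around each other in a triple helix, and each chain has its own gene. The collagen chain genes described here are all genes of the deposited table whose symbol has the form COL, a number, A and a number, with COL17A1 left out, which gave 33 of 16745 genes. By the structure of the collagen they belong to, 8 are fibrillar, 4 are of the basement membrane (type IV), 9 are FACITs (fibril-associated collagens with interrupted triple helices) and 12 are of other kinds. Another 11 chains of these classes, among them COL1A2, COL5A3, COL4A5 and COL22A1, have no entry here and were not analysed here.

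The study profiled RNA from rhesus macaque cultures labelled as cardiomyocytes made from induced pluripotent stem cells. It compared engineered heart tissue (EHT), a tissue cast in 3 dimensions, with a flat monolayer, and hypoxia with normoxia. The 4 groups, with 3 libraries each, were EHT in hypoxia, EHT in normoxia, monolayer in hypoxia and monolayer in normoxia. All cultures were grown in RPMI medium with B27 and insulin. Hypoxia was 24 hours in an anaerobic pouch and then 24 hours after fresh medium, and the labels do not say at which point RNA was taken, so that oxygen and the change of medium cannot be told apart. Neither the stem cell line, nor its number of clones, nor whether other cells were added to the EHTs is stated. Nothing says that the libraries of a group came from separate cultures, so p-values cover only the spread between these libraries. In such bulk RNA, fewer cells of a type and less RNA per cell cannot be told apart.

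In the heart, fibrillar collagens of types I and III form the load-bearing network between muscle bundles, with types V and XI inside the fibrils and FACITs on their surface. Type IV collagen is the sheet that surrounds each cardiomyocyte and each vessel, and type VI forms fine beaded filaments next to that sheet. Fibroblasts make most of the fibrillar collagen. Several of the enzymes that modify and crosslink the chains are known targets of hypoxia-inducible factors.

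The deposited values were turned back into whole reads, put on a common scale between libraries (scaled reads) and tested on the log2 scale with limma, with Benjamini-Hochberg adjustment over the 12042 genes that passed a filter on low values. A gene is called where its adjusted p lay under 0.05. Libraries held 4154346 to 11298841 reads. The 8 cardiomyocyte markers summed to 0.00201 to 0.0718% of reads in EHT hypoxia, 0.00136 to 0.0155% in EHT normoxia, 0.512 to 0.565% in monolayer hypoxia and 0.0445 to 0.322% in monolayer normoxia. Markers of the labelled cell type were thus near 0 in both EHT libraries numbered 3 and below every monolayer library in EHT normoxia, while EHT hypoxia 1 and 2 (0.0567 and 0.0718%) lay above monolayer normoxia 3 (0.0445%). EHT libraries numbered 3 stood apart: MYH6, the atrial myosin of cardiomyocytes, had 0.0 scaled reads in EHT hypoxia 3 and 0.8 in EHT normoxia 3, against 105 to 1004 in the other 4 EHT libraries. The 9 fibroblast or mesenchyme markers of the table, out of 10 listed with no collagen among them, summed to 0.531 to 0.875%, 0.555 to 0.696%, 0.356 to 0.405% and 0.454 to 1.08% of reads in the same order of groups. That sum hid 2 members that separated the cultures. PDGFRB had 4495 to 6606 scaled reads in the EHT libraries, against 792 to 2251 in monolayer, and S100A4 had 1242 to 2619, against 44.4 to 128. Every other fibroblast or mesenchyme marker overlapped between EHT and monolayer. Endothelial, epicardial and macrophage marker lists each summed to at most 0.0412% of reads in any library. No listed marker was at 0 in all 3 libraries of a group.

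Of the 33 collagen genes, 31 passed the filter: all 8 fibrillar, 3 of 4 basement membrane, 8 of 9 FACIT and all 12 others. COL4A3, a chain of the kidney and lung basement membrane, had at most 5.6 scaled reads in any library, and COL20A1, a FACIT, at most 16.0. The median level of the 31 was 9.95 log2 units, against 7.43 for all genes tested, and 90.7% of tested genes lay below that median. Reads on these genes were concentrated on a few: the gene with most reads held 31.4% of collagen reads, the first 2 held 59.7% and the first 10 held 95.2%, not corrected for transcript length.

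**Figure D1:**
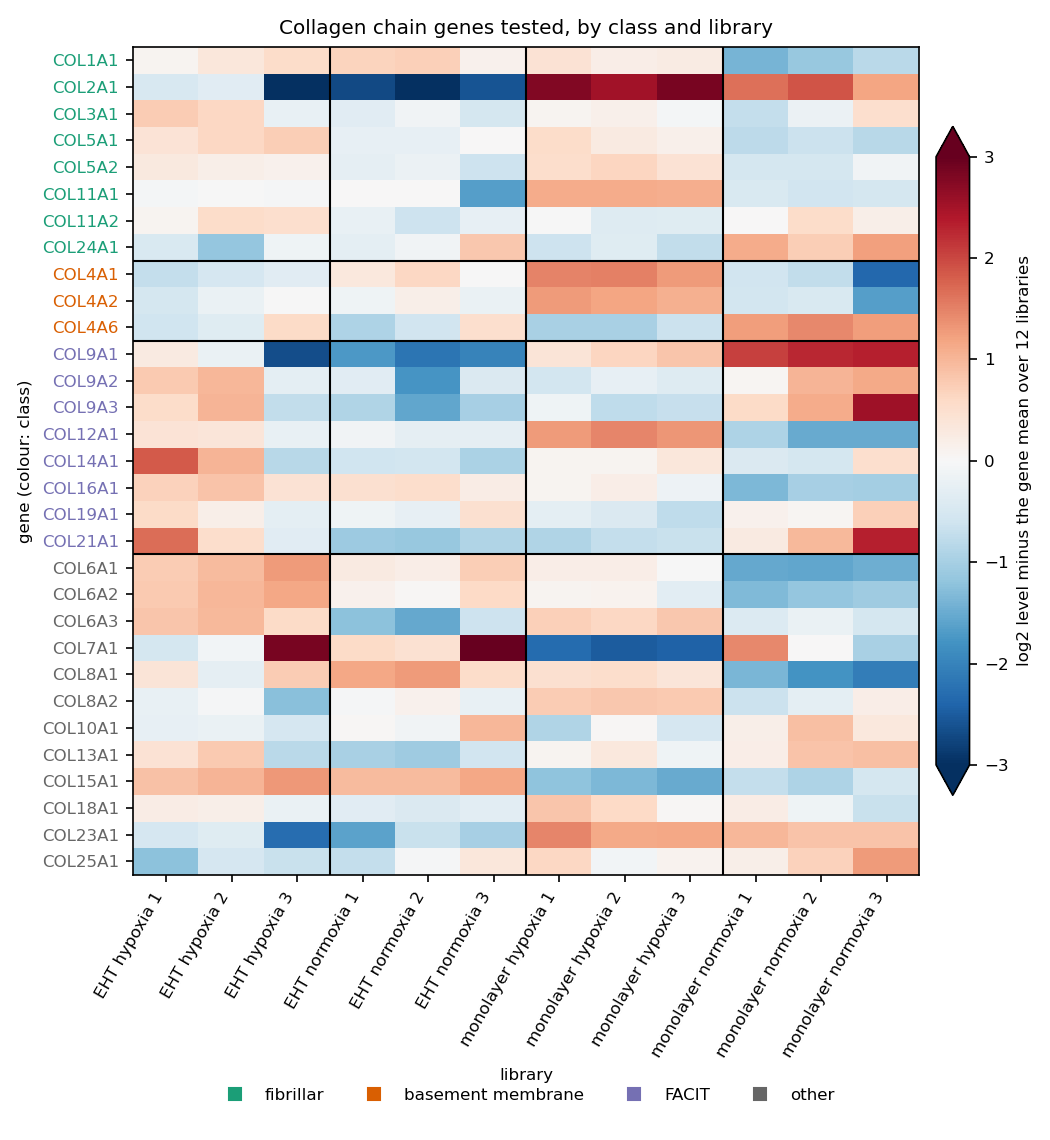
Log2 level of each of the 31 collagen chain genes tested, minus its mean over the 12 libraries, with libraries in columns and genes in lines ordered by class (colour of the gene name). COL4A1, COL4A2 and COL12A1 are high in the 3 monolayer hypoxia libraries, and COL7A1 stands out in EHT hypoxia 3 and EHT normoxia 3.

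Collagen genes together took 9.38 ± 0.67% of reads in EHT hypoxia, 8.22 ± 0.27% in EHT normoxia, 8.12 ± 0.43% in monolayer hypoxia and 6.56 ± 1.46% in monolayer normoxia (SD, n = 3 each). The shares of the groups overlapped between neighbours in that order, except that every EHT hypoxia library (8.62 to 9.88%) lay above every EHT normoxia library (7.99 to 8.52%). Most of this was fibrillar, at 6.10 ± 0.71%, 5.81 ± 0.71%, 5.06 ± 0.32% and 4.88 ± 1.60% in the same order. Basement membrane chains took 0.999 ± 0.072% in monolayer hypoxia, against 0.355 ± 0.15% in monolayer normoxia, and 0.355 ± 0.046% in EHT hypoxia, against 0.568 ± 0.071% in EHT normoxia. FACIT chains took 0.335 ± 0.091% in EHT hypoxia and 0.275 ± 0.0080% in EHT normoxia. In monolayer they took 0.428 ± 0.017% in hypoxia, against 0.184 ± 0.021% in normoxia. Shares of the other kinds were 2.59 ± 0.10%, 1.57 ± 0.53%, 1.63 ± 0.061% and 1.14 ± 0.084%, and all 3 EHT hypoxia libraries lay above every other library.

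**Figure D2:**
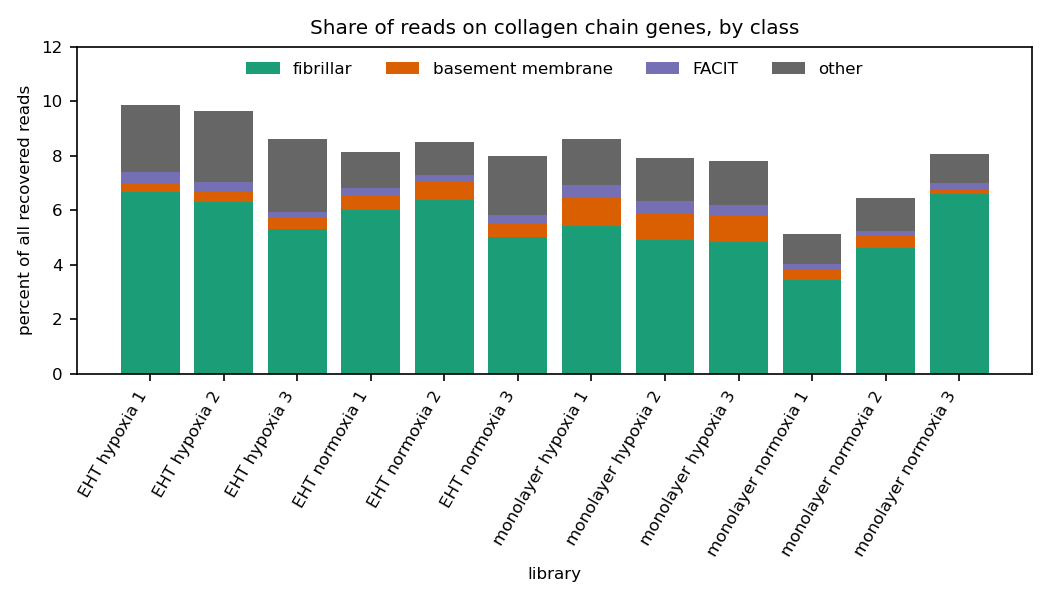
Share of all recovered reads on collagen chain genes in each library, stacked by class, in percent. Fibrillar chains fill most of each bar, and the basement membrane band is widest in monolayer hypoxia, at 0.999% on average.

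In monolayer, hypoxia against normoxia gave the most calls: 14 of 31 collagen genes rose and 8 fell, while 24.0% of all genes tested rose and 24.1% fell, 48.1% in either direction. As shares, 45.2% of collagen genes rose and 25.8% fell. In EHT, hypoxia against normoxia gave 11 that rose and 1 that fell, which is 35.5% and 3.23%, beside 19.5% and 18.6% of all genes (38.1% in either direction). EHT against monolayer in normoxia gave 10 that were higher and 9 that were lower (32.3% and 29.0%), beside 19.2% and 24.6% of all genes (43.8% in either direction). EHT against monolayer in hypoxia gave 6 higher and 8 lower (19.4% and 25.8%), beside 17.9% and 22.4% of all genes (40.2% in either direction), which is close to the background. Median log2 differences of the collagen genes were 0.36, 0.43, -0.17 and 0.07 in these 4 comparisons, beside -0.07, 0.01, -0.06 and -0.06 for all genes tested. The collagen genes lie at higher levels than most genes, and the part of level in these shares was not tested.

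Those counts rest on the rescaling of the libraries. On the deposited scaling, which leaves library medians between 6.99 and 8.76 log2 units, hypoxia against normoxia gave 4 higher and 8 lower in monolayer, and 5 higher and 0 lower in EHT. With the same scaling, EHT against monolayer gave 1 higher and 12 lower in normoxia, and 3 higher and 5 lower in hypoxia. Over all 12042 genes tested, that scaling gave 535 higher and 2386 lower for hypoxia in monolayer, 857 and 268 for hypoxia in EHT, 325 and 3058 for EHT against monolayer in normoxia, and 606 and 943 in hypoxia. The median of all genes was then -0.47 and 0.18 for hypoxia in monolayer and in EHT, and -0.66 and -0.06 for EHT in normoxia and in hypoxia. The EHT calls for hypoxia also moved with single libraries: leaving out one of the 12 at a time gave 4 to 12 collagen genes that rose, and 12 came without EHT hypoxia 3. Over all genes tested, 2975 rose without EHT hypoxia 3 and 1810 without EHT hypoxia 2, beside 2348 with all libraries. For hypoxia in EHT, median centring took away the calls of COL11A2, COL9A2, COL9A3, COL8A1 and COL13A1 (adjusted p 0.0576 to 0.0996), and voom those of COL11A2, COL9A2, COL9A3 and COL13A1 (adjusted p 0.058 to 0.153). A fit of only the EHT libraries took away 9 calls, leaving COL5A1, COL21A1 and COL6A3 (adjusted p of the lost 0.0665 to 0.169). In the other comparisons of groups, COL6A3 and COL4A2 in normoxia were lost with only the groups compared (adjusted p 0.0628 to 0.0642), and COL6A3 there with no filter (adjusted p = 0.0633). COL21A1 between cultures in hypoxia was lost with voom (adjusted p = 0.0633) and with no variance trend (adjusted p = 0.0548), and the monolayer calls of COL9A1 with median centring (adjusted p = 0.0721) and COL7A1 with voom (adjusted p = 0.066).

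**Figure D3:**
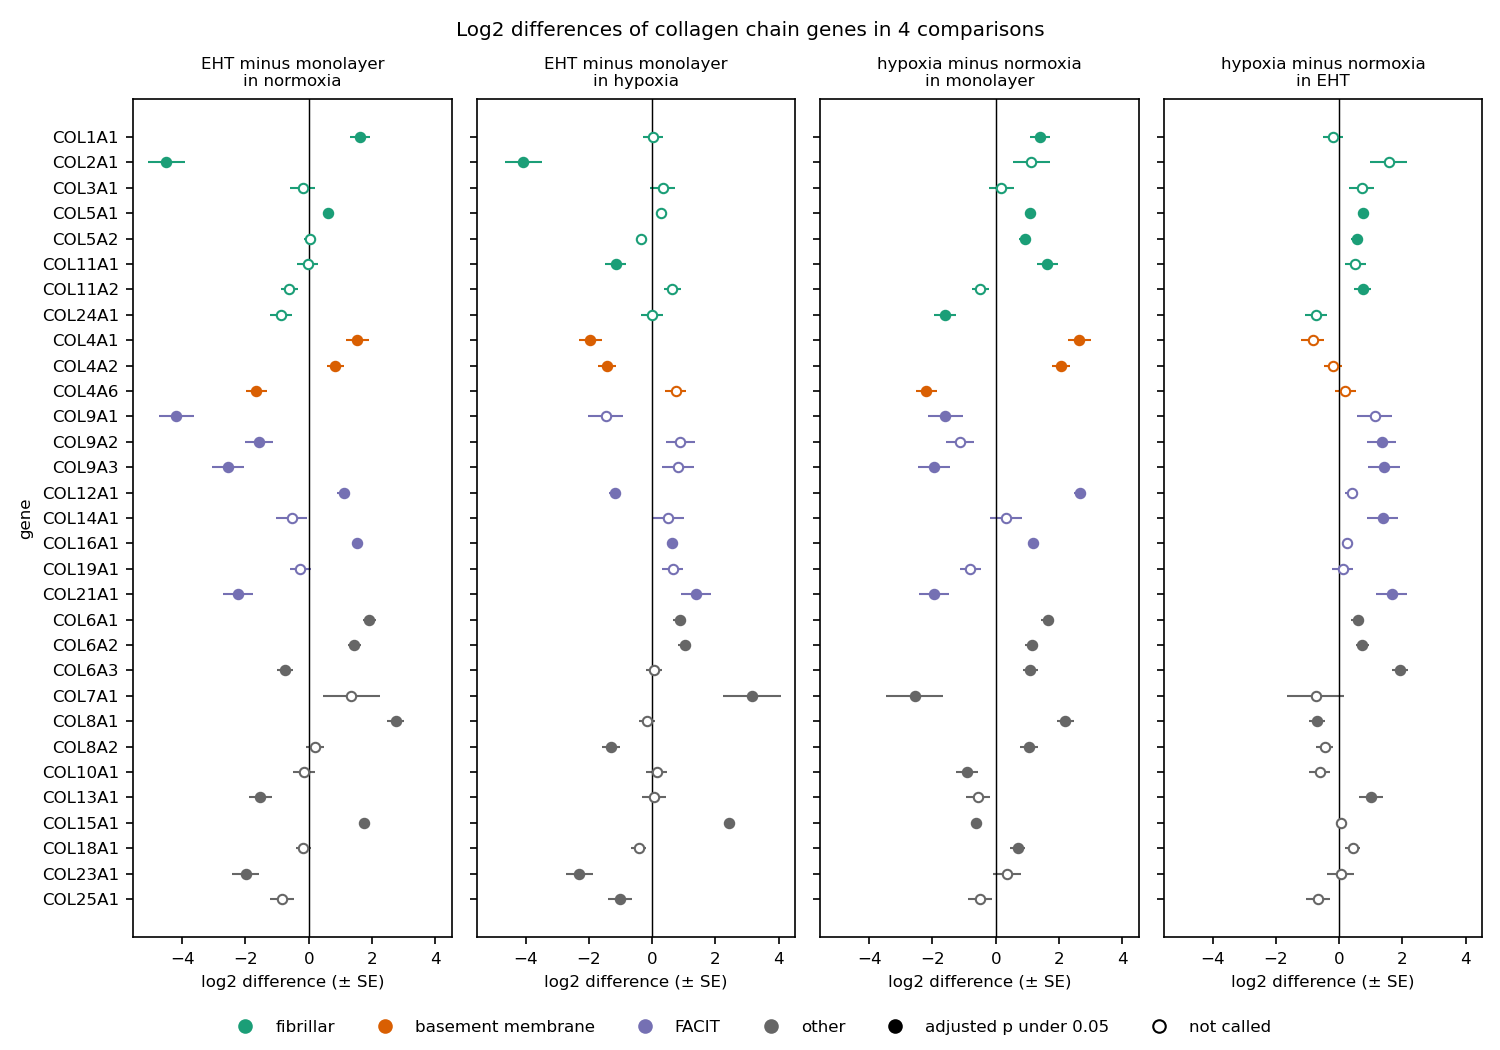
Log2 difference of each collagen chain gene tested, with its standard error, in 4 comparisons of groups, with genes coloured by class and filled where the adjusted p lay under 0.05. Differences run from -4.50 for COL2A1 in EHT against monolayer in normoxia to 3.16 for COL7A1 in EHT against monolayer in hypoxia.

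Among fibrillar chains, COL1A1, COL5A1, COL5A2 and COL11A1 rose with hypoxia in monolayer and COL24A1 fell, while in EHT COL5A1, COL5A2 and COL11A2 rose. COL1A1, a chain of type I collagen, had 170262, 201997 and 234740 scaled reads in EHT hypoxia, 255705, 262851 and 175263 in EHT normoxia, 218725, 183210 and 191795 in monolayer hypoxia, and 60802, 72966 and 92554 in monolayer normoxia. The 3 monolayer normoxia libraries were low and the other 9 overlapped. COL1A1 was thus higher in EHT than in monolayer in normoxia, by 1.61 ± 0.32 log2 units (SE, adjusted p = 0.00139), and in hypoxia than in normoxia in monolayer, by 1.41 ± 0.32 (adjusted p = 0.00286). The other 2 comparisons gave 0.02 ± 0.32 for EHT against monolayer in hypoxia and -0.18 ± 0.32 for hypoxia in EHT, neither called. Both COL1A1 calls were lost on the deposited scaling.

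COL3A1, the chain of type III collagen, was called in no comparison. It had 288170, 262568 and 146092 scaled reads in EHT hypoxia, 135064, 159343 and 117996 in EHT normoxia, 180967, 189074 and 163492 in monolayer hypoxia, and 104354, 150921 and 242660 in monolayer normoxia. EHT hypoxia 3 was the lowest of its group and monolayer normoxia 3 the highest of its own. The ratio of COL1A1 to COL3A1 reads, in which library scaling cancels, was 0.591, 0.769 and 1.61 in EHT hypoxia, 1.89, 1.65 and 1.49 in EHT normoxia, 1.21, 0.969 and 1.17 in monolayer hypoxia, and 0.583, 0.483 and 0.381 in monolayer normoxia. Every monolayer hypoxia library lay above every monolayer normoxia library, and every EHT normoxia library above every monolayer library. EHT hypoxia 1 and 2 lay below EHT normoxia, while EHT hypoxia 3 lay within it.

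Both chains of type V collagen, which starts and limits fibril growth, rose with hypoxia in both cultures. COL5A1 had 14865, 17109 and 18489 scaled reads in EHT hypoxia, against 9318, 9376 and 11277 in EHT normoxia, and 16401, 13332 and 12295 in monolayer hypoxia, against 6407, 7119 and 6253 in monolayer normoxia. In neither culture did the oxygen groups overlap. The rise was 0.75 ± 0.16 log2 units in EHT (adjusted p = 0.00251) and 1.08 ± 0.16 in monolayer (adjusted p = 0.000133). COL5A1 was also higher in EHT than in monolayer in normoxia (0.59 ± 0.16, adjusted p = 0.0084), but on the deposited scaling this difference turned to -0.08 (adjusted p = 0.925).

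COL5A2 had 27898, 25807 and 24894 scaled reads in EHT hypoxia, against 18846, 20272 and 14664 in EHT normoxia, and 33025, 35761 and 30907 in monolayer hypoxia, against 15821, 15720 and 21010 in monolayer normoxia. The oxygen groups again did not overlap. The rise was 0.56 ± 0.18 in EHT (adjusted p = 0.0292) and 0.93 ± 0.18 in monolayer (adjusted p = 0.00115). The EHT call of COL5A2 was lost without EHT hypoxia 1 (0.51, adjusted p = 0.0814), EHT hypoxia 2 (0.57, adjusted p = 0.0667), EHT normoxia 1 (0.60, adjusted p = 0.0552) or EHT normoxia 3 (0.42, adjusted p = 0.0954). On the deposited scaling, calls for hypoxia of both type V chains were lost in both cultures. COL5A2 lies next to COL3A1 in the macaque assembly T2T-MMU8v2.0, and the pair differed in their calls.

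Of the chains of type XI collagen, found inside thin fibrils and best known from cartilage, COL11A1 had 9308, 9612 and 9407 scaled reads in EHT hypoxia, 9728, 9788 and 3051 in EHT normoxia, 21057, 21177 and 20670 in monolayer hypoxia, and 7018, 6561 and 6691 in monolayer normoxia. Monolayer hypoxia stood above every other library, and EHT normoxia 3 was the lowest of all 12. COL11A1 rose with hypoxia in monolayer by 1.63 ± 0.33 (adjusted p = 0.00146) and was lower in EHT than in monolayer in hypoxia, at -1.15 ± 0.33 (adjusted p = 0.0151). Both were lost on the deposited scaling. In normoxia the difference between EHT and monolayer was -0.03 ± 0.33 with all libraries and 0.53 without EHT normoxia 3 (adjusted p = 0.00672).

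COL11A2 was a gene of few reads, with 17.7, 29.6 and 27.8 scaled reads in EHT hypoxia, against 12, 6.7 and 11.6 in EHT normoxia, and 16.0, 9.8 and 10 in monolayer hypoxia, against 16.1, 29.0 and 19.8 in monolayer normoxia. It was higher in EHT hypoxia than in EHT normoxia in every pair of libraries (0.75 ± 0.27, adjusted p = 0.0409). With the replicate number as a block, which gives libraries of the same number a shift shared by all groups, the adjusted p was 0.0617. No fit paired the EHT libraries alone. The call was also lost without any of EHT hypoxia 2 or 3, EHT normoxia 1, 2 or 3, monolayer hypoxia 1, 2 or 3 or monolayer normoxia 3 (0.62 to 0.82, adjusted p 0.0514 to 0.141). Log2 differences of genes with so few reads understate the fold, since the transformation flattens low values.

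COL2A1, the chain of type II collagen of cartilage, was lower in EHT than in monolayer by 22.7-fold in normoxia and 16.8-fold in hypoxia on the transformed scale, on which low levels are flattened. It had 155, 173 and 11.1 scaled reads in EHT hypoxia, 22.3, 8.3 and 25.0 in EHT normoxia, 1600, 1340 and 1691 in monolayer hypoxia, and 730, 870 and 525 in monolayer normoxia. Every EHT library lay below every monolayer library. The log2 differences were -4.50 ± 0.58 in normoxia (adjusted p = 6.42e-05) and -4.07 ± 0.58 in hypoxia (adjusted p = 0.000216). Hypoxia against normoxia missed the threshold in EHT (1.56 ± 0.58, adjusted p = 0.051), but EHT hypoxia 3 lay far below EHT hypoxia 1 and 2. Without EHT hypoxia 3 the difference was 2.52 (adjusted p = 1.01e-05), and with the replicate block it was 1.56 (adjusted p = 0.0477).

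The 6 cartilage markers of the table, out of 7 listed, summed to 0.00733 to 0.0196% of reads in EHT hypoxia, 0.00807 to 0.0164% in EHT normoxia, 0.0168 to 0.018% in monolayer hypoxia and 0.0152 to 0.0188% in monolayer normoxia. None was at 0 throughout a group. COMP, a cartilage matrix protein, had 113, 121 and 3.7 scaled reads in EHT hypoxia, 13.7, 15 and 11.6 in EHT normoxia, 633 to 668 in monolayer hypoxia and 44.4, 157 and 7.8 in monolayer normoxia. Like COL2A1, COMP was low in EHT hypoxia 3 beside the other EHT hypoxia libraries. SOX9, ACAN and MATN1 were also lowest of that group there, and HAPLN1 was not. MATN3 had 0.0 in EHT hypoxia 2 and 3. Unlike COL2A1, none of the 6 markers had every EHT library below every monolayer library. SOX9 had 713 and 871 in EHT hypoxia 1 and 2, against 331 to 348 in monolayer hypoxia. ACAN had 189 and 331 in EHT normoxia 1 and 2, against 35.3 to 120 in monolayer normoxia. The part of these markers in the COL2A1 result was not tested. COL24A1, a minor fibrillar collagen, had 7.4, 10.6 and 6.0 scaled reads in monolayer hypoxia, against 52.0, 36.7 and 57.4 in monolayer normoxia, and fell there by 1.60 log2 units (SE 0.35, adjusted p = 0.00239). In EHT it had 9.5, 2.5 and 14.8 in hypoxia and 12, 15 and 39.9 in normoxia, and the groups overlapped.

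With hypoxia in monolayer COL4A1 and COL4A2 rose and COL4A6 fell, and in EHT none of the 3 basement membrane chains was called. COL4A1 and COL4A2 form the type IV molecule that nearly every basement membrane contains. COL4A1 had 9101, 10574 and 11870 scaled reads in EHT hypoxia, against 18702, 23213 and 14911 in EHT normoxia, and 42419, 42781 and 36627 in monolayer hypoxia, against 10038, 9054 and 2942 in monolayer normoxia. COL4A2 had 14533, 18138 and 20742 in EHT hypoxia, against 19162, 23608 and 18289 in EHT normoxia, and 50550, 47671 and 43639 in monolayer hypoxia, against 14130, 15246 and 6602 in monolayer normoxia. For both genes monolayer hypoxia was above all other libraries, and monolayer normoxia 3 was the lowest of all.

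With hypoxia in monolayer, COL4A1 rose 6.27-fold (2.65 ± 0.36, adjusted p = 8.25e-05) and COL4A2 4.19-fold (2.07 ± 0.28, adjusted p = 7.19e-05). In EHT neither was called: COL4A1 stood at -0.83 ± 0.36 (adjusted p = 0.0881), with groups that did not overlap, and COL4A2 at -0.20 ± 0.28. COL4A1 was called lower at the same difference with only the EHT libraries fitted (adjusted p = 0.0281) and without monolayer normoxia 3 (adjusted p = 0.00432), and fell by 1.09 log2 units without both EHT libraries numbered 3 (adjusted p = 0.0445). EHT against monolayer went in opposite directions by oxygen. In hypoxia COL4A1 was lower (-1.95 ± 0.36, adjusted p = 0.00117) and so was COL4A2 (-1.42 ± 0.28, adjusted p = 0.00161). In normoxia COL4A1 was higher by 1.53 ± 0.36 (adjusted p = 0.00456) and COL4A2 by 0.85 ± 0.28 (adjusted p = 0.0258). The normoxia call of COL4A2 was lost without EHT normoxia 1 (0.88, adjusted p = 0.0521), EHT normoxia 2 (0.73, adjusted p = 0.09) or monolayer normoxia 3 (0.46, adjusted p = 0.0926). Leaving out monolayer normoxia 3 left COL4A1 at 0.97 in that comparison, still called. On the deposited scaling both normoxia calls were lost.

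The ratio of COL4A1 to COL4A2 reads was 0.626, 0.583 and 0.572 in EHT hypoxia, against 0.976, 0.983 and 0.815 in EHT normoxia, and 0.839, 0.897 and 0.839 in monolayer hypoxia, against 0.71, 0.594 and 0.446 in monolayer normoxia. Hypoxia libraries thus had the lower ratio in EHT and the higher ratio in monolayer, with no overlap in either culture. The spans of these neighbouring genes overlap in T2T-MMU8v2.0, and the strand used in counting is not stated, so reads in the shared stretch cannot be told apart. Smooth muscle markers, all 5 in the table, summed to 0.134 to 0.146% of reads in EHT hypoxia, 0.207 to 0.297% in EHT normoxia, 0.538 to 0.646% in monolayer hypoxia and 0.178 to 0.41% in monolayer normoxia. As for COL4A1 and COL4A2, monolayer hypoxia was highest, but EHT hypoxia was the lowest group for these markers and monolayer normoxia for the mean of both chains. Their part in the type IV result was not tested.

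COL4A6, which pairs with another type IV chain in smooth muscle and epithelial basement membranes, ran the other way. It had 139, 165 and 329 scaled reads in EHT hypoxia, against 108, 140 and 317 in EHT normoxia, and 103, 103 and 133 in monolayer hypoxia, against 543, 620 and 543 in monolayer normoxia. Monolayer normoxia was above every other library, and the EHT libraries numbered 3 were the highest of their groups. COL4A6 fell with hypoxia in monolayer by 2.19 log2 units (SE 0.34, adjusted p = 0.000225) and was lower in EHT than in monolayer in normoxia (-1.65 ± 0.34, adjusted p = 0.00195). In hypoxia the difference between EHT and monolayer was 0.74 ± 0.34 (adjusted p = 0.103), and with the replicate block its adjusted p was 0.0421. The 6 epithelial markers of the table, out of 8 listed, summed to 0.00104 to 0.00816% of reads in EHT hypoxia, 0.000751 to 0.00135% in EHT normoxia, 0.00426 to 0.00538% in monolayer hypoxia and 0.108 to 0.609% in monolayer normoxia, and the part of this in the COL4A6 result was not tested.

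Of the 8 FACIT chains tested, 2 rose and 3 fell with hypoxia in monolayer, and 4 rose and 0 fell in EHT. Of all genes, 24.0% rose and 24.1% fell in monolayer, so the share of FACITs that rose there is near the background, and 19.5% rose and 18.6% fell in EHT. COL12A1, which coats type I fibrils in tissues under load, had 15362, 14773 and 9923 scaled reads in EHT hypoxia, 10722, 9568 and 9652 in EHT normoxia, 28110, 31964 and 28831 in monolayer hypoxia, and 6073, 4072 and 4023 in monolayer normoxia. Monolayer hypoxia was above all EHT libraries, which were above monolayer normoxia. COL12A1 rose 6.37-fold with hypoxia in monolayer (2.67 ± 0.20, adjusted p = 1.02e-06). It was lower in EHT than in monolayer in hypoxia (-1.17 ± 0.20, adjusted p = 0.000657) and higher in normoxia (1.10 ± 0.20, adjusted p = 0.000811), and both were lost on the deposited scaling. In EHT, hypoxia against normoxia gave 0.39 ± 0.20 (adjusted p = 0.139), and 0.60 (adjusted p = 0.0191) without EHT hypoxia 3.

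COL16A1, another FACIT of fibroblasts and smooth muscle, had 9645, 10868 and 8096 scaled reads in EHT hypoxia, 8318, 8591 and 6902 in EHT normoxia, 6350, 6806 and 5395 in monolayer hypoxia, and 2320, 2974 and 2930 in monolayer normoxia. Here every EHT library was above every monolayer library. EHT exceeded monolayer by 1.53 ± 0.16 in normoxia (adjusted p = 1.27e-05) and 0.62 ± 0.16 in hypoxia (adjusted p = 0.00836). COL16A1 rose with hypoxia in monolayer by 1.17 ± 0.16 (adjusted p = 8.13e-05), and in EHT the difference was 0.26 ± 0.16, not called. All 3 calls were lost on the deposited scaling.

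COL14A1, which binds type I fibrils of mature matrix, had 5105, 2881 and 792 scaled reads in EHT hypoxia, 928, 967 and 729 in EHT normoxia, 1504, 1503 and 1787 in monolayer hypoxia, and 1044, 974 and 2004 in monolayer normoxia. The EHT hypoxia libraries ranged widely, and the third lay within EHT normoxia. The difference for hypoxia in EHT was 1.37 ± 0.49 (adjusted p = 0.0428), and with the replicate block its adjusted p was 0.0518. Without EHT hypoxia 1 it was 0.79 (adjusted p = 0.186), and without EHT hypoxia 3 it was 2.12. COL14A1 also lost this call without any one of EHT hypoxia 2, EHT normoxia 1, 2 or 3, monolayer hypoxia 1, 2 or 3 and monolayer normoxia 1 or 2 (1.20 to 1.45, adjusted p 0.0513 to 0.132). In hypoxia EHT against monolayer was 0.51 ± 0.49, and 1.26 (adjusted p = 0.00421) without EHT hypoxia 3.

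COL21A1, a FACIT of vessel walls and muscle, moved with hypoxia in opposite directions in the 2 cultures. It had 1323, 590 and 318 scaled reads in EHT hypoxia, against 184, 177 and 209 in EHT normoxia, and 209, 241 and 251 in monolayer hypoxia, against 492, 814 and 2116 in monolayer normoxia. The oxygen groups did not overlap in either culture. It rose by 1.66 ± 0.48 in EHT (adjusted p = 0.0167) and fell by 1.95 in monolayer (SE 0.48, adjusted p = 0.00516). EHT was lower than monolayer in normoxia (-2.24 ± 0.48, adjusted p = 0.00259) and higher in hypoxia (1.38 ± 0.48, adjusted p = 0.0374). The EHT rise was 1.13 (adjusted p = 0.0746) without EHT hypoxia 1. The hypoxia difference between cultures was lost with the replicate block (adjusted p = 0.0527), and without EHT hypoxia 1 (0.85, adjusted p = 0.154), EHT hypoxia 2 (1.43, adjusted p = 0.0673) or monolayer hypoxia 1, 2 or 3 (1.31 to 1.43, adjusted p 0.0764 to 0.099).

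The 3 chains of type IX collagen, which decorates type II fibrils in cartilage, had few reads. COL9A1 had 46.2, 29.6 and 0.0 scaled reads in EHT hypoxia, against 3.4, 0.8 and 1.7 in EHT normoxia, and 50.4, 63.8 and 73.7 in monolayer hypoxia, against 192, 227 and 239 in monolayer normoxia. COL9A2 had 32.6, 39.5 and 9.3 in EHT hypoxia, against 8.6, 0.0 and 7.5 in EHT normoxia, and 6.1, 9.8 and 8.0 in monolayer hypoxia, against 14.6, 40.2 and 44.7 in monolayer normoxia. COL9A3 had 50.3, 74.0 and 13.0 in EHT hypoxia, against 10.3, 3.3 and 9.2 in EHT normoxia, and 25.8, 12.4 and 14.0 in monolayer hypoxia, against 51.0, 79.9 and 244 in monolayer normoxia. For all 3, EHT normoxia lay below monolayer normoxia with no overlap, and EHT hypoxia 3 was the lowest of its group.

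In normoxia COL9A1 was lower in EHT than in monolayer (-4.19 ± 0.56, adjusted p = 7.56e-05), as were COL9A2 (-1.58 ± 0.45, adjusted p = 0.0132) and COL9A3 (-2.56 ± 0.51, adjusted p = 0.00148). The COL9A2 call was lost without EHT normoxia 2 (-1.11, adjusted p = 0.0617), monolayer normoxia 2 (-1.43, adjusted p = 0.05) or monolayer normoxia 3 (-1.38, adjusted p = 0.0542). With hypoxia in monolayer COL9A1 fell by 1.60 (SE 0.56, adjusted p = 0.0300) and COL9A3 fell by 1.94 (SE 0.51, adjusted p = 0.00718), while COL9A2 was at -1.12 ± 0.45 (adjusted p = 0.055). Each monolayer library, when left out, took the COL9A1 call away (-1.70 to -1.48, adjusted p 0.0552 to 0.0887).

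With hypoxia in EHT, COL9A2 rose by 1.34 ± 0.45 (adjusted p = 0.0321) and COL9A3 by 1.43 ± 0.51 (adjusted p = 0.0413, and 0.0596 with the replicate block), and COL9A1 was at 1.12 ± 0.56. Without EHT hypoxia 3, COL9A1 was at 2.02 (adjusted p = 4.68e-05). COL9A2 lost the call without EHT hypoxia 1 (1.20, adjusted p = 0.0965), EHT hypoxia 2 (1.10, adjusted p = 0.119) or EHT normoxia 2 (0.88, adjusted p = 0.142). COL9A3 lost it without EHT hypoxia 1 or 2, EHT normoxia 1, 2 or 3, monolayer hypoxia 1, 2 or 3 or monolayer normoxia 2 (1.06 to 1.55, adjusted p 0.0518 to 0.164). COL19A1, a sparse FACIT next to COL9A1 in T2T-MMU8v2.0, had 1.0 to 17.7 scaled reads and was called in no comparison.

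Among the other collagens, the chains of type VI collagen took most reads, not corrected for length, and all 3 rose with hypoxia in both cultures. COL6A1 had 52401, 60544 and 75232 scaled reads in EHT hypoxia, 37397, 35872 and 51844 in EHT normoxia, 35504, 35685 and 30761 in monolayer hypoxia, and 10687, 10517 and 11341 in monolayer normoxia. COL6A2, its neighbour in T2T-MMU8v2.0, had 45306, 52023 and 58475 in EHT hypoxia, 28529, 26646 and 39834 in EHT normoxia, 27714, 27959 and 20863 in monolayer hypoxia, and 10493, 11659 and 12508 in monolayer normoxia. Both were above their normoxia group in every hypoxia library and above monolayer in every EHT library of the same oxygen.

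EHT exceeded monolayer in normoxia by 1.92 ± 0.20 for COL6A1 (adjusted p = 1.38e-05) and 1.43 ± 0.21 for COL6A2 (adjusted p = 0.000138). In hypoxia the differences were 0.87 ± 0.20 (adjusted p = 0.0047) for COL6A1 and 1.03 ± 0.21 (adjusted p = 0.00187) for COL6A2. With hypoxia in monolayer COL6A1 rose by 1.64 ± 0.20 (adjusted p = 3.94e-05) and COL6A2 by 1.13 ± 0.21 (adjusted p = 0.000674). In EHT the rises were 0.59 ± 0.20 for COL6A1 (adjusted p = 0.0355) and 0.73 ± 0.21 for COL6A2 (adjusted p = 0.0143). COL6A1 lost this EHT call without EHT hypoxia 2 or 3, EHT normoxia 1 or 2, monolayer hypoxia 1 or 2 or monolayer normoxia 2 (0.45 to 0.61, adjusted p 0.0502 to 0.125), and COL6A2 without EHT normoxia 1 (0.66, adjusted p = 0.0558) or EHT normoxia 2 (0.62, adjusted p = 0.0641). All 8 of these calls were lost on the deposited scaling.

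COL6A3, the third and longest chain of type VI collagen, had 85784, 94617 and 71689 scaled reads in EHT hypoxia, 20678, 16560 and 31296 in EHT normoxia, 79450, 74892 and 85079 in monolayer hypoxia, and 36441, 42351 and 33366 in monolayer normoxia. Hypoxia libraries were above all normoxia libraries, and EHT normoxia was below monolayer normoxia. COL6A3 rose 3.78-fold with hypoxia in EHT (1.92 ± 0.25, adjusted p = 9.05e-05), which held in every alternative run, and by 1.10 ± 0.25 in monolayer (adjusted p = 0.00294), which was lost on the deposited scaling. In normoxia it was lower in EHT than in monolayer (-0.75 ± 0.25, adjusted p = 0.0264), unlike its partner chains. That call was lost without EHT normoxia 1 (-0.71, adjusted p = 0.0825), EHT normoxia 2 (-0.55, adjusted p = 0.126) or monolayer normoxia 2 (-0.66, adjusted p = 0.0922).

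Within type VI, the ratio of COL6A3 to COL6A1 reads was 1.64, 1.56 and 0.953 in EHT hypoxia, against 0.553, 0.462 and 0.604 in EHT normoxia, and 2.24, 2.1 and 2.77 in monolayer hypoxia, against 3.41, 4.03 and 2.94 in monolayer normoxia. None of the 4 groups overlapped another, and hypoxia went with a higher ratio in EHT and a lower one in monolayer. COL6A2 to COL6A1 varied less, at 0.834 ± 0.049 in EHT hypoxia, 0.758 ± 0.013 in EHT normoxia, 0.747 ± 0.060 in monolayer hypoxia and 1.06 ± 0.072 in monolayer normoxia (SD, n = 3 each).

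**Figure D4:**
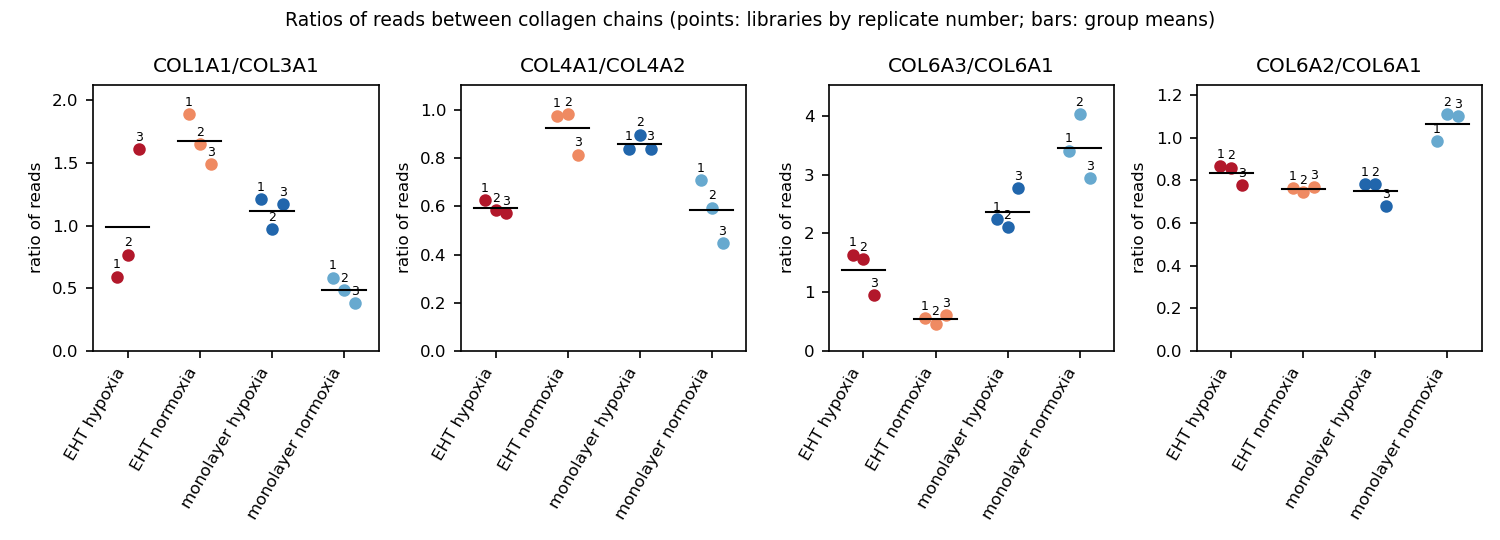
Ratio of reads between collagen chains in each library, by group, with replicate numbers beside the points, group means as bars and a linear axis from 0. EHT hypoxia 3 lies apart from replicates 1 and 2 for COL1A1/COL3A1, and COL6A3/COL6A1 separates all 4 groups.

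COL7A1, the chain of the anchoring fibrils that fasten epithelia to the tissue below, had the largest standard error of the collagen genes. It had 673, 911 and 7135 scaled reads in EHT hypoxia, 1460, 1330 and 10854 in EHT normoxia, 184, 160 and 168 in monolayer hypoxia, and 2649, 983 and 484 in monolayer normoxia. Both EHT libraries numbered 3 were far above the rest. COL7A1 was higher in EHT than in monolayer in hypoxia (3.16 ± 0.90, adjusted p = 0.0145) and with hypoxia in monolayer it fell by 2.56 (SE 0.90, adjusted p = 0.0322). The monolayer fall was lost without monolayer hypoxia 1 (-2.61, adjusted p = 0.068), 2 (-2.52, adjusted p = 0.0805) or 3 (-2.55, adjusted p = 0.0753), and without monolayer normoxia 1 (-1.92, adjusted p = 0.132) or 2 (-2.63, adjusted p = 0.0645). Among the 6 epithelial markers, KRT5 had 351, 421 and 3.7 scaled reads in EHT hypoxia, 15.4, 15.8 and 0.0 in EHT normoxia, and 24105, 4071 and 3042 in monolayer normoxia. EPCAM had 9.5, 3.7 and 33.3 in EHT hypoxia, 0.0, 0.8 and 6.7 in EHT normoxia, and 847, 786 and 596 in monolayer normoxia. Within each EHT group, EPCAM was thus highest in the library numbered 3, as COL7A1 was, and KRT5 was lowest there. Unlike COL7A1, EPCAM in both of these libraries lay below every monolayer library. KRT15 (0.0 in both) and KRT18 (3.7 in hypoxia and 30.8 in normoxia) were also lowest of their EHT groups there. CDH1 lay between the other libraries in EHT hypoxia 3 (25.9) and was lowest in EHT normoxia 3 (0.8). CLDN4 was lowest of its group in EHT hypoxia 3 (18.5) and highest of its group in EHT normoxia 3. CLDN4 had 692, 815 and 726 in monolayer normoxia and did not share the order of COL7A1 there. KRT5, KRT15, CDH1, EPCAM and KRT18 did share it, falling from library 1 to 3, though KRT18 only from 75.2 to 73.0. In monolayer hypoxia, KRT18 (106, 207 and 90.7) lay above every monolayer normoxia library. Every other marker of the list lay below, as KRT5 with 39.4, 77.1 and 144. The part of these markers in the COL7A1 result was not tested.

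Type VIII collagen forms a short-chain network in vessel walls. COL8A1 had 1044, 650 and 1359 scaled reads in EHT hypoxia, 1774, 1947 and 1169 in EHT normoxia, 1099, 1144 and 1027 in monolayer hypoxia, and 296, 216 and 174 in monolayer normoxia. Monolayer normoxia was below all other libraries. COL8A1 was 6.71-fold higher in EHT than in monolayer in normoxia (2.75 ± 0.26, adjusted p = 6.2e-06) and rose 4.61-fold with hypoxia in monolayer (2.20 ± 0.26, adjusted p = 2.78e-05). In EHT it was the one collagen called lower with hypoxia (-0.70 ± 0.26, adjusted p = 0.0495), with overlapping groups, and the replicate block gave an adjusted p of 0.0561. Without EHT hypoxia 1 or 2, EHT normoxia 1 or 2, monolayer hypoxia 1, 2 or 3 or monolayer normoxia 2 that call of COL8A1 was lost (-0.75 to -0.41, adjusted p 0.0631 to 0.217).

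COL8A2, the other type VIII chain, had 364, 418 and 168 scaled reads in EHT hypoxia, 415, 467 and 366 in EHT normoxia, 739, 762 and 751 in monolayer hypoxia, and 265, 344 and 495 in monolayer normoxia. Monolayer hypoxia was above all other libraries. COL8A2 rose with hypoxia in monolayer (1.04 ± 0.28, adjusted p = 0.00856) and was lower in EHT than in monolayer in hypoxia (-1.30 ± 0.28, adjusted p = 0.00308). Both were lost on the deposited scaling.

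The multiplexin COL15A1, of the basement membrane zone of muscle and vessels, differed by culture in each oxygen condition. It had 2916, 3201 and 3880 scaled reads in EHT hypoxia, 3074, 3041 and 3510 in EHT normoxia, 674, 612 and 538 in monolayer hypoxia, and 945, 819 and 1083 in monolayer normoxia. All EHT libraries were above all monolayer libraries. EHT exceeded monolayer 5.35-fold in hypoxia (2.42 ± 0.15, adjusted p = 7.8e-07) and 3.36-fold in normoxia (1.75 ± 0.15, adjusted p = 2.17e-06). COL15A1 fell with hypoxia in monolayer (-0.63 ± 0.15, adjusted p = 0.0034) and gave 0.05 ± 0.15 in EHT. On the deposited scaling the normoxia difference between cultures and the monolayer fall were lost.

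Among transmembrane collagens, COL23A1 had 13.6, 16.0 and 0.0 scaled reads in EHT hypoxia and 1.7, 10.8 and 6.7 in EHT normoxia, against 92.2, 70.0 and 70.8 in monolayer hypoxia and 61.5, 54.5 and 54.6 in monolayer normoxia. Every EHT library was below every monolayer library, with differences of -2.31 ± 0.43 in hypoxia (adjusted p = 0.00123) and -1.99 ± 0.43 in normoxia (adjusted p = 0.00262). COL13A1, a collagen of adhesion sites and the neuromuscular junction, had 47.6, 65.4 and 13.0 in EHT hypoxia, against 10.3, 9.2 and 17.5 in EHT normoxia, and 34.4, 43.4 and 27.9 in monolayer hypoxia, against 38.8, 69.2 and 71.6 in monolayer normoxia. It was lower in EHT than in monolayer in normoxia (-1.53 ± 0.37, adjusted p = 0.00563). For hypoxia in EHT, where EHT hypoxia 3 lay within normoxia, the difference was 1.01 ± 0.37 (adjusted p = 0.0496, and 0.057 with the replicate block).

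That COL13A1 call was lost without EHT hypoxia 1 or 2, any EHT normoxia library, any monolayer hypoxia library or monolayer normoxia 2 or 3 (0.68 to 1.16, adjusted p 0.05 to 0.2). A single call each was made for the next genes. COL18A1, the source of endostatin, rose with hypoxia in monolayer by 0.69 ± 0.23 (adjusted p = 0.0245), with overlapping groups. COL10A1, of hypertrophic cartilage, fell there by 0.92, and COL25A1, a transmembrane collagen, was at -1.02 in EHT against monolayer in hypoxia.

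Whether the hypoxia response differed between the cultures was tested as an interaction, the response in EHT minus that in monolayer. It was called for 16 of 31 collagen genes, 8 in each direction, which is 25.8% each, beside 13.6% of all genes tested that were higher and 13.4% that were lower (27.0% in either direction). The median was 0.29 for the collagen genes and 0.04 for all genes. By class, all 3 basement membrane chains, 6 of 8 FACITs, 2 of 8 fibrillar and 5 of 12 other chains were called. On the deposited scaling 7 were higher and 2 lower, beside 1116 higher and 102 lower of all 12042 genes tested, whose median was 0.62. The calls lost there were those of COL1A1, COL11A2, COL4A2, COL12A1, COL16A1, COL6A1, COL8A2 and COL15A1 (adjusted p 0.101 to 0.88).

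A negative interaction was called for COL4A1 (-3.48 ± 0.51, adjusted p = 0.000531), COL8A1 (-2.91 ± 0.37, adjusted p = 0.000227), COL12A1 (-2.28 ± 0.28, adjusted p = 0.000202), COL4A2 (-2.27 ± 0.39, adjusted p = 0.00143), COL1A1 (-1.59 ± 0.45, adjusted p = 0.0201), COL8A2 (-1.50 ± 0.40, adjusted p = 0.0147), COL6A1 (-1.05 ± 0.29, adjusted p = 0.0172) and COL16A1 (-0.91 ± 0.23, adjusted p = 0.0107). All 8 had risen with hypoxia in monolayer, and in EHT COL6A1 rose, COL8A1 fell and 6 were not called. The COL1A1 interaction was lost without monolayer hypoxia 1 (-1.52, adjusted p = 0.0585).

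A positive interaction was called for COL21A1 (3.61 ± 0.68, adjusted p = 0.00238), COL9A3 (3.37 ± 0.72, adjusted p = 0.00469), COL9A1 (2.72 ± 0.79, adjusted p = 0.0225), COL9A2 (2.47 ± 0.64, adjusted p = 0.013), COL4A6 (2.39 ± 0.48, adjusted p = 0.00351), COL13A1 (1.57 ± 0.53, adjusted p = 0.0436), COL11A2 (1.24 ± 0.38, adjusted p = 0.0279) and COL15A1 (0.67 ± 0.21, adjusted p = 0.0286). These 8 reached the same sign in different ways. COL21A1 and COL9A3 rose in EHT and fell in monolayer. COL4A6, COL9A1 and COL15A1 fell in monolayer (-2.19, -1.60 and -0.63) and were not called in EHT (0.20, 1.12 and 0.05). COL9A2, COL11A2 and COL13A1 rose in EHT (1.34, 0.75 and 1.01) and were not called in monolayer (-1.12, -0.49 and -0.57). Except for COL4A6, COL21A1 and COL15A1, these had at most 244 scaled reads in any library. COL13A1 lost its call with the replicate block (adjusted p = 0.0515) and without any 1 library other than EHT hypoxia 3, EHT normoxia 3 or monolayer normoxia 1 (1.24 to 1.69, adjusted p 0.0629 to 0.0992). COL15A1 lost its call without EHT normoxia 1 or 2, monolayer hypoxia 2 or 3 or monolayer normoxia 3 (0.57 to 0.68, adjusted p 0.058 to 0.0733). COL11A2 lost its call without EHT hypoxia 2, EHT normoxia 2, monolayer hypoxia 2 or 3 or monolayer normoxia 2 (1.10 to 1.19, adjusted p 0.0589 to 0.0711), and COL9A1 without EHT hypoxia 2, EHT normoxia 2 or monolayer hypoxia 1 (2.39 to 2.61, adjusted p 0.0503 to 0.0557). With no filter on low values the interactions of COL1A1 and COL13A1 were lost (adjusted p 0.0564 to 0.117), with no variance trend that of COL15A1 (adjusted p = 0.0559), and with median centring those of COL11A2, COL9A1 and COL13A1 (adjusted p 0.0749 to 0.114). Both EHT libraries numbered 3 were also left out, and calls added are listed only for the 27 genes described library by library. That run added COL2A1 (1.55), COL14A1 (1.68), COL6A3 (1.18) and COL7A1 (1.74) to those with a positive interaction, and COL11A1 (-1.68) to those with a negative one.

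**Figure D5:**
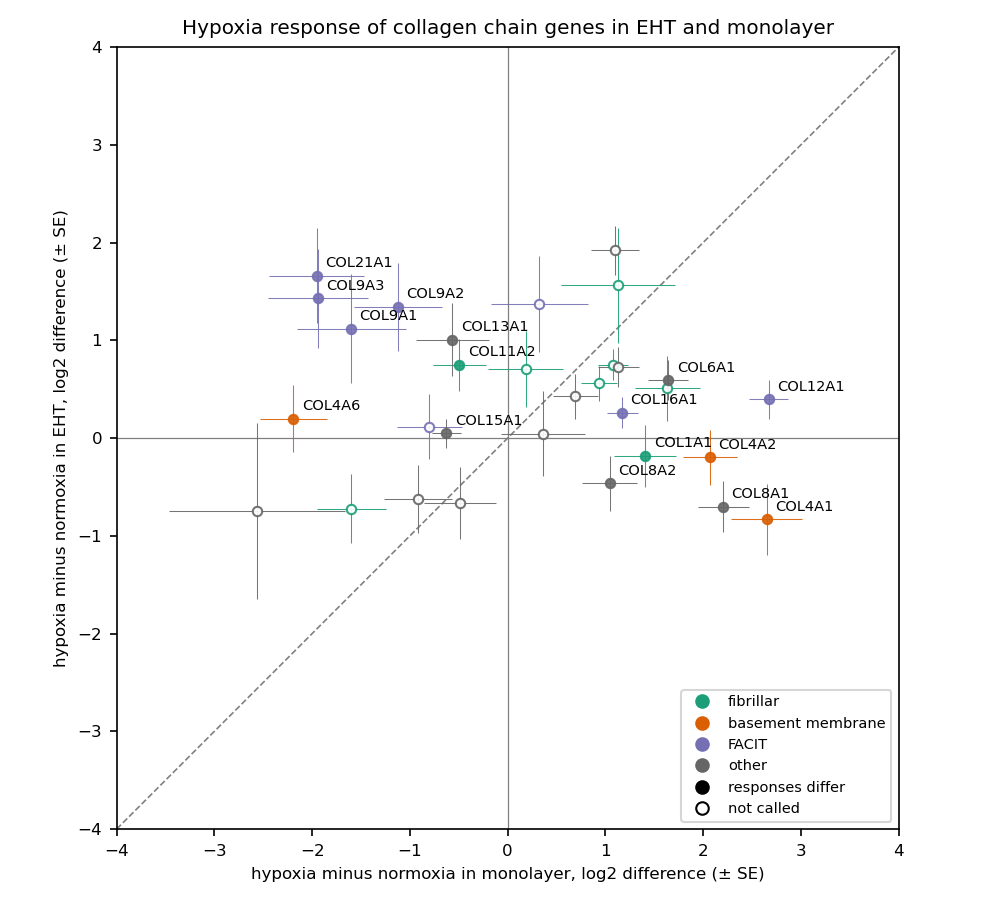
Hypoxia minus normoxia in EHT (vertical axis) against the same in monolayer (horizontal axis), as log2 differences with standard errors, for each collagen chain gene tested, filled and named where the responses differed, with a dashed line at equal response. COL4A1, COL12A1 and COL8A1 lie far right near or below 0 in EHT, and COL21A1 and the type IX chains lie to the upper left.

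Other genes of the collagen pathway were counted by role. Their counts and differences are from the main fit, and no alternative run is given for them. On the deposited scaling the median of all genes tested was -0.66 for EHT against monolayer in normoxia, beside -0.06 in the main fit. Of 16 tested enzymes that modify and fold chains in the endoplasmic reticulum, 11 rose and 1 fell with hypoxia in monolayer, beside 24.0% and 24.1% of all genes tested, and 5 rose and 1 fell in EHT, beside 19.5% and 18.6%. PLOD2, which hydroxylates the lysines used in crosslinks, had 6534, 6795 and 7639 scaled reads in EHT hypoxia, against 2091, 1764 and 1431 in EHT normoxia, and 6001, 6192 and 6655 in monolayer hypoxia, against 795, 846 and 1262 in monolayer normoxia. Both oxygen contrasts separated fully, with rises of 1.99 in EHT (adjusted p = 6.63e-06) and 2.71 in monolayer (adjusted p = 3.64e-07). The prolyl hydroxylases P4HA1 and P4HA2, which stabilise the triple helix, rose by 1.94 and 1.43 in EHT and by 2.27 and 1.40 in monolayer. SERPINH1, the chaperone of procollagen, had differences of 0.09 in EHT and 0.20 in monolayer, neither called. P3H2, of the same list, was called at 1.68 in EHT and -0.52 in monolayer, with an interaction of 2.19 (adjusted p = 0.000251).

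Of 12 genes of extracellular processing and crosslinking, 6 rose and 2 fell with hypoxia in monolayer (24.0% and 24.1% of all genes), and 3 rose and 2 fell in EHT, which is near the 19.5% and 18.6% of all genes. LOX, the lysyl oxidase that crosslinks fibrils, had 12009, 14937 and 6878 scaled reads in EHT hypoxia, against 2211, 2003 and 698 in EHT normoxia, and 15912, 18982 and 16747 in monolayer hypoxia, against 1267, 1455 and 872 in monolayer normoxia. It rose by 2.86 in EHT (adjusted p = 0.000115) and 3.86 in monolayer (adjusted p = 7.51e-06), and the interaction was not called (-0.99, adjusted p = 0.198). LOXL2, a related oxidase, rose by 1.05 in EHT and 3.24 in monolayer, and its interaction was called (-2.19, adjusted p = 0.00165). LOXL1, unlike LOX and LOXL2, was called lower with hypoxia, at -1.365 in EHT (adjusted p = 1.68e-05) and -0.38 in monolayer (adjusted p = 0.0368). BMP1, which cleaves the carboxyl propeptide of fibrillar chains, was lower in EHT than in monolayer in hypoxia (-0.89) and higher in normoxia (0.71).

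Of 8 tested receptors, 5 were higher and 1 lower in EHT than in monolayer in normoxia (19.2% and 24.6% of all genes), and 1 was higher and 2 lower in hypoxia, near the 17.9% and 22.4% of all genes. The collagen-binding integrin ITGA10 was the one higher in both, by 2.71 in each. ITGA11, which binds type I collagen on fibroblasts, was higher in EHT in normoxia (2.75) and rose with hypoxia in monolayer (2.96), with an interaction of -3.35 (adjusted p = 0.000251). DDR1, a collagen receptor of epithelia, was lower in EHT in normoxia (-2.48) and in hypoxia (-0.77). DDR2 was higher in EHT in normoxia (0.94) and lower in hypoxia (-0.59), and rose with hypoxia in monolayer (1.92). Of 6 tested proteases, 5 were higher in EHT than in monolayer in normoxia and 4 in hypoxia, and none was called lower in either, beside 19.2% and 17.9% of all genes higher and 24.6% and 22.4% lower. CTSK, the collagen-degrading cathepsin K, was higher in EHT by 4.09 in normoxia (adjusted p = 9.65e-07) and 2.25 in hypoxia (adjusted p = 0.000135), and MMP2, which cleaves denatured and type IV collagen, by 2.20 and 0.71. With hypoxia, 3 of the 6 proteases rose and none fell in monolayer, beside 24.0% and 24.1% of all genes. None was called in EHT, beside 19.5% of all genes that rose and 18.6% that fell.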

How the data were processed

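RNA of 12 libraries was sequenced on an Ion Proton after an Ion Total RNA-Seq library preparation, per the labels' protocols. The authors aligned, counted and transformed the reads with HISAT2, featureCounts and DESeq2, per the submitters' processing notes; for versions, genome build, annotation and counting strand, the entry is: not given in the sources used here. The deposited values are variance-stabilised log2 values, which the authors scaled between libraries, 1 column for each library. Inverting the transform gave whole read counts for every deposited value, within 0.01 reads. Because library medians differed on the deposited scaling (6.99 to 8.76 log2 units), reads were rescaled by median-of-ratios factors and the same transform was applied again, which gave medians of 7.39 to 7.56. Scaled reads are recovered reads divided by these factors.

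The test covered the 12042 of 16745 genes whose mean exceeded the floor of the transform (3.00, the value of 0 reads) by 1 log2 unit or more. limma 3.58.1 in R 4.3.3 was fitted to all 12 libraries with 1 mean for each group and a mean-variance trend, and p-values were two-sided and Benjamini-Hochberg adjusted over all genes tested, per comparison. The fit was also run on simulated counts in which all genes shared the same setting for spread. That run cannot show how well the fit works on these libraries. The 27 collagen genes described library by library were the 3 with most reads in each class, partner chains of the same molecule, up to 2 called genes for each class, direction and comparison with the smallest p, and all called in the interaction. Pathway genes were drawn from a like rule of smallest p, up to 3 for each list and comparison, plus P4HA1, P4HA2, PLOD2, LOX, SERPINH1, DDR1 and DDR2. Not every gene under that rule is described, so those named are a selection. The collagen genes, gene lists and tests were chosen with earlier results of these data known. Alternatives were the deposited values, median centring, voom on the recovered reads, other filters, no trend, only the groups compared, a replicate block and leaving out each library; leaving out both EHT libraries numbered 3 was added after seeing the data. Between EHT hypoxia and EHT normoxia, deviations from the group means had r of 0.114, 0.251 and 0.307 over genes in the same-numbered pairs. Across numbers 1 and 2, r was alike (0.108 and 0.232). Deviations in a group of 3 sum to 0, so libraries numbered 3 that stand apart alike raise r among numbers 1 and 2. The check thus shows that number 3 departed alike in both EHT groups, and cannot show that numbers 1 and 2 are paired. In no other comparison did all 3 pairs exceed 0.1, although EHT normoxia and monolayer normoxia gave 0.187 and 0.153 for numbers 2 and 3. Replicates of every group differed by more than sampling noise. Symbols were matched to RefSeq (assembly T2T-MMU8v2.0, used for names and neighbours).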

Additional observations from a re-analysis of the deposited data

Results flagged for a closer look

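The hypoxia response differed between EHT and monolayer, by the interaction test in limma, for 16 of 31 collagen genes (51.6%), beside 27.0% of all genes tested. Given here are the log2 values of the response in EHT minus that in monolayer. Type IV collagen chains had -3.48 (COL4A1), -2.27 (COL4A2) and 2.39 (COL4A6). FACIT chains had -2.28 (COL12A1), -0.91 (COL16A1), 2.72 (COL9A1), 2.47 (COL9A2), 3.37 (COL9A3) and 3.61 (COL21A1). Fibrillar chains had -1.59 (COL1A1) and 1.24 (COL11A2). The other collagens had -2.91 (COL8A1), -1.50 (COL8A2), -1.05 (COL6A1), 1.57 (COL13A1) and 0.67 (COL15A1). On the deposited scaling 8 of these calls were lost, those of COL1A1, COL11A2, COL4A2, COL12A1, COL16A1, COL6A1, COL8A2 and COL15A1. Leaving out 1 library at a time took away the COL13A1 call in 9 runs and those of COL11A2 and COL15A1 in 5 each. It also took away that of COL9A1 in 3 runs and that of COL1A1 in 1. Groups of 3 libraries are too small for a test of single outlying libraries.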

How the results depend on the processing

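Deposited values as they stand gave 1 collagen gene called higher and 12 lower in EHT against monolayer in normoxia, 3 and 5 in hypoxia, 4 and 8 for hypoxia in monolayer, 5 and 0 for hypoxia in EHT, and 7 and 2 for the interaction. COL5A1 in EHT against monolayer in normoxia then turned to -0.0777. Over all genes tested, that scaling gave 325 higher and 3058 lower in EHT against monolayer in normoxia, and 606 and 943 in hypoxia. For hypoxia it gave 535 and 2386 in monolayer and 857 and 268 in EHT, and 1116 and 102 for the interaction. For hypoxia in EHT the number higher, 11 with all libraries, was 7 with median centring, 7 with voom, 7 with no filter and 3 with only the groups compared; the number lower was 0 with centring, no filter, no trend or the replicate block. The run with no filter covered 33 collagen genes, against 31 in the main fit. For hypoxia in EHT it lost the calls of COL5A2, COL9A3, COL14A1, COL6A1, COL8A1 and COL13A1 (adjusted p 0.0559 to 0.0823). Median centring gave 5 higher in the interaction. With the replicate block, 8 were higher for hypoxia in EHT, and 2347 over all genes tested. The block gives EHT and monolayer libraries of a number the same shift, although nothing states that they share more than a number. Without both EHT libraries numbered 3, 10 were higher in EHT against monolayer in hypoxia, 2 lower for hypoxia in EHT and 13 higher in the interaction, and COL11A1 in EHT against monolayer in normoxia was 0.53. Over all genes tested, the counts without both EHT libraries numbered 3 were 2437, 2599 and 2326 in the same order. The causes were not tested. Leaving out 1 library at a time gave 9 to 11 higher and 7 to 10 lower in EHT against monolayer in normoxia, 5 to 9 and 7 to 9 in hypoxia, 13 to 15 and 5 to 10 for hypoxia in monolayer, 4 to 12 and 0 to 2 for hypoxia in EHT, and 4 to 10 and 7 to 9 for the interaction; COL11A1 in normoxia ranged between -0.31 and 0.53. Over all genes tested, leaving out 1 library gave 1810 to 2656 higher and 2439 to 3351 lower in EHT against monolayer in normoxia. In hypoxia it gave 1641 to 2217 and 2019 to 2776. For hypoxia against normoxia it gave 2411 to 3234 and 2301 to 3337 in monolayer, and 1810 to 2975 and 1679 to 2573 in EHT. For the interaction it gave 1192 to 2215 and 1183 to 2024. At 4154346 to 11298841 reads for each library, sparse chains such as COL9A1 and COL11A2 rest on few reads.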
